A study of Mus musculus with 14 samples.

Results

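The acute phase response genes described here are 10 genes: Saa1, Saa3, Steap4, Lrg1, Hp, Orm1, Serpina3n, Cp, Lbp and Osmr. They were followed through every probe set that the platform annotation assigns to one of these symbols, which gave 22 of the 45101 probe sets on the array and 10 of the 18194 genes with a value. The genes were read in perfused mouse lung and compared between mice carrying a 4T1 tumour, mice carrying a 67NR tumour and mice without a tumour. In 4T1 lungs Steap4 and Lrg1 were higher than in normal lungs and than in 67NR lungs. The Lrg1 call against 67NR lungs was not made when all probe sets were tested, and it was lost in some alternative settings. The other members did not pass the test in any comparison, with Saa1 and Orm1 tested only in the fit over all probe sets.

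The acute phase response is the change in secreted proteins that follows infection, injury or a growing tumour, driven mainly by interleukin 6 family cytokines acting through gp130 and STAT3, and by interleukin 1 and tumour necrosis factor acting through NF-kB and C/EBP factors. The liver is its main source, but several of its proteins, among them serum amyloid A3, haptoglobin, ceruloplasmin and lipopolysaccharide binding protein, are also made in other tissues, lung included. The products bind lipids, iron, copper, haemoglobin or bacterial lipopolysaccharide, inhibit proteases, or carry signals between cells.

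All mice were BALB/c. In 1 group the metastatic breast carcinoma line 4T1 had been injected into the fourth mammary fat pad (4 arrays), in a second group the non-metastatic carcinoma line 67NR had been injected there (5 arrays), and the normal group had received PBS without cells (5 arrays). Lungs of tumour-bearing mice were taken 6 days after inoculation, or at a tumour volume of about 50 mm3. No day of collection is listed for the normal group. The lungs were flushed with PBS to clear the vessels of blood before RNA was made from the lobes. Each class of tumour is represented by 1 cell line, and the sources used here do not give mouse age, sex or time of day. The labels number the samples of a group, but whether every sample is a separate animal is not stated. A p-value here therefore reflects sample-to-sample spread, which may be technical in part.

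RNA from each lung sample was read on 1 Affymetrix array, and the values are linear probe set intensities as the authors deposited them. Array medians lay between 113.2 and 116.1. Of the other cells that a lung sample could hold, neutrophil markers had the most calls, and their values stand beside the results they move with. Alveolar type 2 and club cell, endothelial, fibroblast and pericyte, and mesothelial lists had 0 genes past the test by limma in any comparison (0 to 2 genes per list at an unadjusted p under 0.05), with list medians between -0.067 and 0.051 on the log2 scale. The clock output genes, which follow the time of day, had summed intensities of 2645 and 3843 in 67NR replicates 1 and 3 against 9661 to 18326 in the other 12 arrays, so those arrays stand apart in the 67NR group. All 8 clock output genes had an unadjusted limma p under 0.05 in 67NR against normal lung and 0 passed after adjustment. In 4T1 against 67NR lung 7 of the 8 had such a p, with a median change of 1.05, and 0 passed. Of 10 glucocorticoid response genes 1 was called, Lcn2 in 4T1 against 67NR lung. In that comparison 4 of the 10 had an unadjusted p under 0.05, and their list median was 0.41.

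Steap4, a metalloreductase that reduces iron and copper at membranes, is measured by a pair of probe sets. With probe set 1460197_a_at, the brighter one, the 4T1 lungs read 1165, 1141, 1703 and 1337. The 67NR lungs read 729, 586, 652, 578 and 566, and the normal lungs 600, 523, 641, 561 and 617. Every 4T1 array was above every other array, and the 67NR and normal arrays overlapped. The mean of the 4T1 lungs was 1336 ± 260 (SD, n = 4). The 67NR lungs averaged 622 ± 68.5 (SD, n = 5), and the mean without a tumour was 588 ± 47.0 (SD, n = 5).

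The change of Steap4 in 4T1 against normal lung was 1.15 on the log2 scale (SE 0.11, 95% interval 0.91 to 1.38), a 2.21-fold rise with an interval of 1.88 to 2.61 (limma adjusted p = 5.81e-05). Log2 values are log2(intensity + 16) throughout, so folds understate the change of dim genes. The second probe set, 1425829_a_at, gave 344, 252, 361 and 352 in 4T1 lungs, 183, 181, 174, 150 and 182 in 67NR lungs, and 139, 152, 159, 158 and 144 in normal lungs. Here too the 4T1 arrays did not overlap with the others, and the change against normal was 1.03 (SE 0.096, limma adjusted p = 2.54e-04 over all probe sets). Both probe sets of the gene thus rose by a similar amount.

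Lrg1 encodes leucine-rich alpha-2 glycoprotein, a secreted protein that binds the co-receptor endoglin and modulates TGF-beta signalling in vessels. Its single probe set, 1417290_at, read 1634, 1316, 2260 and 1677 in 4T1 lungs. It read 1170, 876, 1015, 1057 and 788 in 67NR lungs and 849, 972, 1095, 937 and 881 in normal lungs. The lowest 4T1 array lay above the highest array of either other group. The means were 1722 ± 393 (SD, n = 4), 981 ± 151 (SD, n = 5) and 947 ± 95.6 (SD, n = 5). Against normal lung the rise was 0.83 on the log2 scale (SE 0.14, 95% interval 0.53 to 1.13), or 1.78-fold with an interval of 1.45 to 2.19 (limma adjusted p = 0.0118).

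**Figure D1:**
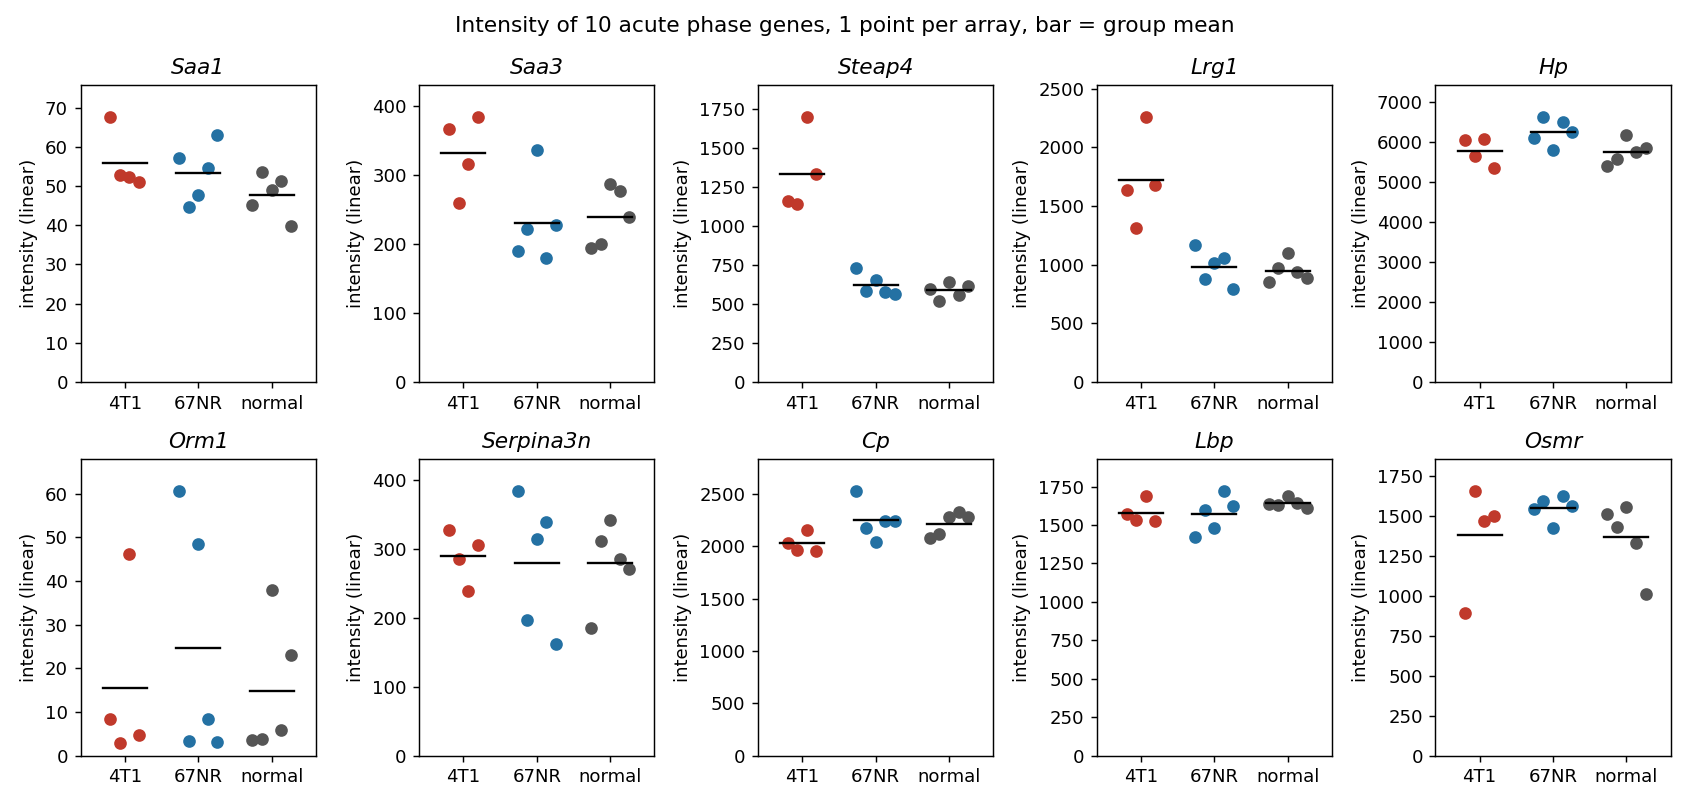
Intensity of the members in each array, on a linear axis from 0 with 1 probe set per gene, for 4T1, 67NR and normal lungs; each point is 1 array and each bar a group mean. The 4 Steap4 and Lrg1 values of the 4T1 lungs lie above all 10 values of the other groups, whereas the groups overlap for the other 8 genes.

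Because Steap4 and Lrg1 moved together, the 250 bases before their transcription starts are shown, from RefSeq on GRCm38.p6, with matches to a STAT motif (TTCNNNGAA), a C/EBP motif (TTGCNNAA) and an NF-kB motif (GGG and CC with any 5 bases between them) in capitals, searched on both strands. The Steap4 window is chr5:7960222-7960471 on the plus strand and the Lrg1 window is chr17:56121947-56122196 on the minus strand.
Steap4: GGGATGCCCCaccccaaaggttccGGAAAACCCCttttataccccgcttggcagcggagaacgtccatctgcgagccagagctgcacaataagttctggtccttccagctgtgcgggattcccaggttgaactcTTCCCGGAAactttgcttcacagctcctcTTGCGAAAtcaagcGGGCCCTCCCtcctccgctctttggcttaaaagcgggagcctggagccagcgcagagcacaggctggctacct
Lrg1: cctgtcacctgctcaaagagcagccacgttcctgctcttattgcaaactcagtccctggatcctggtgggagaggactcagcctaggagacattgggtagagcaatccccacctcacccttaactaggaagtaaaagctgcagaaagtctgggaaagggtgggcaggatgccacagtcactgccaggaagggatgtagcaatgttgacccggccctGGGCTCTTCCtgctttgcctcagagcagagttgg
The Steap4 window held the STAT match TTCCCGGAA from 116 to 108 bases before the start, the C/EBP match TTGCGAAA from 87 to 80 bases before it, and 3 NF-kB matches. The Lrg1 window held 1 match, the NF-kB sequence GGGCTCTTCC from 34 to 25 bases before the start. Over the 32841 windows of this length in the table, 7.02% held a STAT match, 9.57% a C/EBP match and 45.8% an NF-kB match. Of the 10 members, 7 had an entry in the promoter table, namely Saa1, Saa3, Steap4, Lrg1, Serpina3n, Cp and Osmr, and the Steap4 window alone among their 8 windows held a STAT match. The C/EBP motif was present in the windows of Saa1, Saa3 and Steap4 and in 1 of the 2 Cp windows. The NF-kB motif was present in those of Saa1, Steap4, Lrg1, Serpina3n and Osmr and in 1 of the 2 Cp windows. The 2 Cp windows overlap each other. A match describes these letters and is not evidence of binding.

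Of the 8 members bright enough to be tested (the upper 60% of genes by mean level), 2 were higher in 4T1 than in normal lung and 0 were lower, whereas of all 10916 genes tested 0.412% were higher and 0 were lower. The members were chosen with earlier results of these data known. Their shares, here and in the other comparisons, are therefore a description and not a test of the list. At an unadjusted limma p under 0.05, 3 of the 8 passed, against 6.56% of all genes, and the third was Saa3. The 2 members whose arrays did not overlap can be read against 1.4% of all genes with every 4T1 array above every normal array. The median change over the 8 members was 0.037, against -0.00077 over all genes tested, with 5 members above 0 and 3 below. Among all probe sets with 1 gene symbol, tested without a filter on level, 3 of the 22 member probe sets were higher, against 0.174% of all, and 0 were lower, against 0.0114% of all. They were the pair for Steap4 and the one for Lrg1, and in these 3 every 4T1 array lay above every normal array, as in 1.1% of all probe sets. The Lrg1 call in this fit (adjusted p = 0.0452) was lost, leaving 2, without 4T1 replicate 1, 3 or 4 and without 67NR replicate 2, 3 or 4. It was also lost without any 1 of the normal arrays, with an offset of 1, with the replicate number as a block, and with only the 2 groups compared. At an unadjusted p under 0.05, 7 of the 22 passed, against 5.72% of all. Those of Steap4, Lrg1 and Saa3 were higher. Probe set 1450788_at of Saa1 and probe sets 1417495_x_at and 1455393_at of Cp were lower. Of the 22 probe sets 8 belong to Cp, and probe sets of 1 gene are not separate members.

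**Figure D2:**
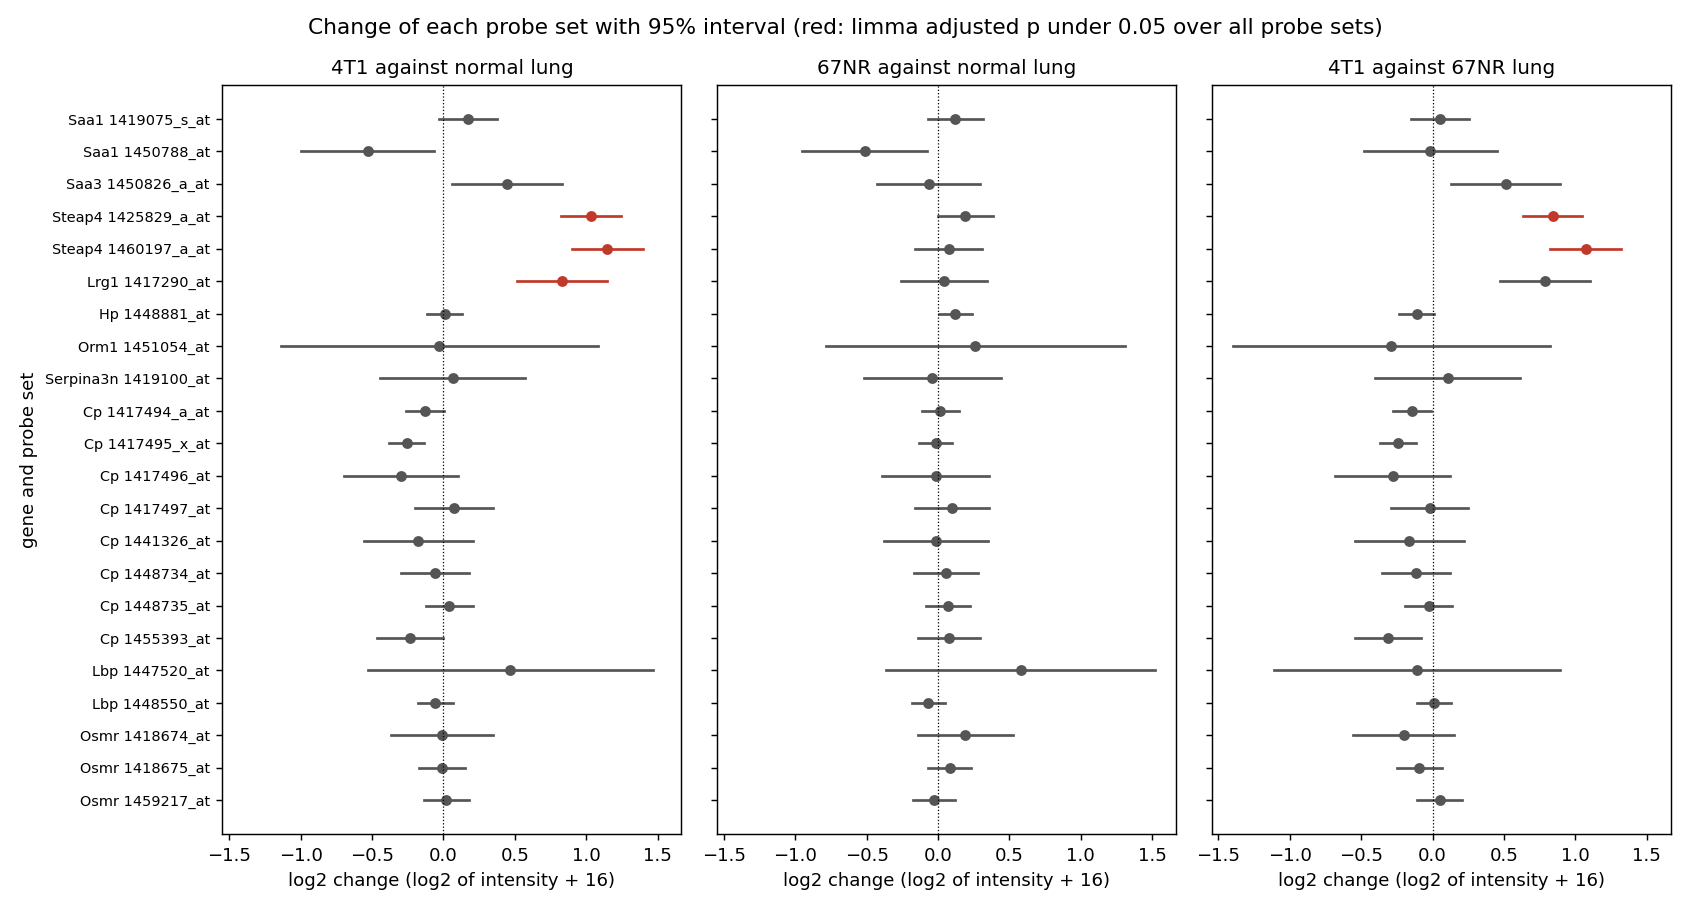
Log2 change of each of the 22 member probe sets in the 3 comparisons, with 95% intervals from the limma fit over all single-symbol probe sets; red marks an adjusted p under 0.05. In 4T1 lungs the Steap4 changes of 1.03 and 1.15 and the Lrg1 change of 0.83 against normal stand clear of 0.

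Saa3, the serum amyloid A gene that is expressed mainly outside the liver, had the next largest difference among the 8 members of the gene fit. It read 367, 259, 317 and 385 in 4T1 lungs, 189, 222, 336, 180 and 228 in 67NR lungs, and 195, 200, 287, 276 and 239 in normal lungs. The groups overlapped, since 1 of the 4T1 arrays lay within the normal range and 67NR replicate 3 lay inside the 4T1 range. The difference from normal lung was 0.45 (95% interval 0.085 to 0.81), which did not pass the test (limma unadjusted p = 0.019, adjusted p = 0.60). The means were 332 ± 56.6 (SD, n = 4), 231 ± 62.3 (SD, n = 5) and 239 ± 42.6 (SD, n = 5).

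Saa1, the liver serum amyloid A gene that travels on high-density lipoprotein, was dim and lay under the filter on level. Probe set 1419075_s_at read 51.1 to 67.7 in 4T1, 44.7 to 63.1 in 67NR and 39.7 to 53.7 in normal lungs, and its difference between 4T1 and normal was 0.17 (95% interval -0.03 to 0.38). Saa1 and Saa2 are near-identical copies, and the suffix of this probe set marks probes shared between transcripts, so the value cannot be assigned to Saa1 alone. The transcript that the platform gives for this probe set is Saa2 in RefSeq. The second Saa1 probe set, 1450788_at, read 8.47 to 11.4 in the 9 arrays of tumour-bearing mice, and 10.1, 20.0, 37.3, 42.0 and 9.0 in normal lungs. Of the normal lungs, 3 were thus raised at the bottom of the scale and the other 2 lay within the range of the tumour-bearing groups. The difference of this probe set between 4T1 and normal was -0.53 (limma unadjusted p = 0.0293, adjusted p = 0.793 over all probe sets). Saa2 itself read 18.4 to 36.2 over the 14 arrays. No serum amyloid A probe set was called in any comparison.

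The carrier proteins showed no called change. Hp, haptoglobin, which binds free haemoglobin, read 6031, 5646, 6077 and 5354 in 4T1 lungs, 6087, 6622, 5800, 6478 and 6238 in 67NR lungs, and 5397, 5557, 6161, 5751 and 5845 in normal lungs. The ranges overlapped in every pair of groups, and the 4T1 difference from normal was 0.01 with an interval of -0.11 to 0.13. Lbp, which hands lipopolysaccharide to CD14, read 1527 to 1686 in 4T1, 1425 to 1724 in 67NR and 1608 to 1686 in normal lungs, with a difference of -0.06 (95% interval -0.17 to 0.06) between 4T1 and normal. A dimmer Lbp probe set, 1447520_at, ranged from 12.1 to 183 over the arrays and was not called.

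Cp encodes ceruloplasmin, the plasma ferroxidase that carries copper, and it has 8 probe sets. The brightest by mean level, 1417494_a_at, read 2033, 1964, 2159 and 1955 in 4T1 lungs, 2534, 2176, 2046, 2245 and 2238 in 67NR lungs, and 2084, 2116, 2280, 2328 and 2281 in normal lungs. Its difference of -0.13 from normal (95% interval -0.26 to 0.0013) did not pass the test (limma unadjusted p = 0.0521, adjusted p = 0.771). Probe set 1417495_x_at read 1686, 1666, 1806 and 1468 in 4T1 lungs, against 1882 to 2074 in 67NR and 1912 to 2042 in normal lungs. These 4T1 arrays lay below all others, as did 1.35% of all probe sets against normal lung, and the difference of -0.26 had a limma unadjusted p of 6.26e-04 and an adjusted p of 0.192. The other 6 Cp probe sets overlapped between 4T1 and normal lungs, with differences from -0.30 to 0.08.

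Orm1, alpha-1 acid glycoprotein, which binds drugs and lipids, was under the filter on level. It read 8.33, 2.83, 46.2 and 4.69 in 4T1 lungs, 60.8, 3.34, 48.4, 8.32 and 3.08 in 67NR lungs, and 3.70, 3.79, 37.9, 5.89 and 23.0 in normal lungs. Some arrays of every group were raised and the rest lay near the bottom of the scale, so the spread within groups exceeded any difference between them. The 5 raised arrays also had adipocyte marker scores above 0 (0.06 to 0.71), where the score is the mean centred log2 value of the adipocyte list. The part of those cells in the Orm1 values was not tested. 4T1 replicate 4, with a score of 0.13, was not raised.

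Serpina3n, a serine protease inhibitor of the antichymotrypsin family, read 327, 286, 239 and 306 in 4T1 lungs. It read 385, 196, 314, 339 and 163 in 67NR lungs and 186, 312, 342, 286 and 271 in normal lungs. The groups overlapped, and the 4T1 arrays lay inside the range of the 67NR arrays. The difference between 4T1 and normal was 0.07 on the log2 scale (95% interval -0.41 to 0.55). The log2 SDs within the 4T1, 67NR and normal groups were 0.18, 0.51 and 0.32.

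Osmr, the receptor subunit that pairs with gp130 to bind oncostatin M, read 895, 1662, 1469 and 1500 in 4T1 lungs, 1545, 1595, 1425, 1629 and 1565 in 67NR lungs, and 1513, 1432, 1558, 1335 and 1010 in normal lungs. 1 array of the 4T1 group and 1 of the normal group were low, and the groups overlapped. The difference between 4T1 and normal was -0.01 (95% interval -0.34 to 0.33). The other 2 Osmr probe sets differed by -0.01 and 0.02.

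In 67NR against normal lung, 0 of the 8 tested members were called, and percent called over all genes tested was 0 as well. At an unadjusted limma p under 0.05, 1 of the 8 members passed, Hp at 0.12 (95% interval 0.01 to 0.23, adjusted p = 0.519), against 9.13% of all genes tested. The arrays of 67NR and normal lungs overlapped for all 8 members, whereas 0.852% of all genes had every 67NR array above and 0.797% every 67NR array below. Steap4 differed by 0.08 (95% interval -0.15 to 0.30) and Lrg1 by 0.04 (95% interval -0.24 to 0.32). The other tested members differed by between -0.07 and 0.19, with Osmr the highest at 0.19 and Lbp the lowest. Over all single-symbol probe sets 0 of the 22 member probe sets were called, against 0.00286% of all higher and 0 lower. At an unadjusted p under 0.05, 2 of the 22 passed, against 6.77% of all, the Hp probe set and the dim 1450788_at of Saa1. None of the 22 had separate groups, against 0.715% of all above and 0.512% below.

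The 4T1 and 67NR lungs were also compared directly, which tests whether the 2 tumour lines differ. Steap4 was higher in 4T1 lungs by 1.07 (SE 0.11, 95% interval 0.83 to 1.31), or 2.10-fold (limma adjusted p = 1.24e-04). Lrg1 was higher by 0.79 (SE 0.14, 95% interval 0.49 to 1.09), or 1.73-fold (limma adjusted p = 0.0153). These were 2 of the 8 members tested, against 0.559% of all genes higher and 0.202% lower, and both sets of arrays were fully separate, as in 2.35% of all genes. The Lrg1 call against 67NR was lost without 4T1 replicate 1 (adjusted p = 0.0508), without 4T1 replicate 4 (adjusted p = 0.0523), and with the normal lungs left out of the fit (adjusted p = 0.0679). It also missed the threshold when all probe sets were tested (adjusted p = 0.0535), where the pair for Steap4 alone was called, against 0.169% of all probe sets higher and 0.0486% lower. In all 3 probe sets of these genes every 4T1 array lay above every 67NR array, as in 1.39% of all.

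The remaining members did not pass the test against 67NR lung. Saa3 differed by 0.51 (limma adjusted p = 0.201), Hp by -0.11, Cp by -0.15, Lbp by 0.01, Osmr by -0.20 and Serpina3n by 0.11. At an unadjusted limma p under 0.05, 4 of the 8 tested members passed, against 12.4% of all genes, and besides Steap4 and Lrg1 these were Saa3 and Cp. Probe set 1455393_at of Cp also had every 4T1 array below every 67NR array, though the nearest values were 1056 and 1057, and with 1417495_x_at it was 1 of 2 member probe sets so placed, against 1.77% of all. At an unadjusted p under 0.05, 7 of the 22 member probe sets passed, against 8.77% of all. Those of Steap4, Lrg1 and Saa3 were higher, and probe sets 1417494_a_at, 1417495_x_at and 1455393_at of Cp were lower. The comparisons share arrays, so their values stand side by side and do not support each other.

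Neutrophil markers moved with Steap4 and Lrg1. Of 20 listed markers, 19 had a value and 11 were tested, and 8 of these stood higher in 4T1 lungs when set against normal ones, among them S100a8 and S100a9, the calprotectin subunits, and the chemokine receptor gene Cxcr2 (log2 changes of 2.38, 2.48 and 2.41). The same 8 were higher than in 67NR lungs, and 0 were called between 67NR and normal lungs. Summed intensity of the 19 markers was 29406 to 39576 in 4T1, 10414 to 15460 in 67NR and 9820 to 13584 in normal lungs. The granule protease genes Elane and Ctsg, markers of neutrophil precursors, read 18.6 to 39.1 and 3.45 to 7.94 over all arrays. Prtn3, a further one, read 49.6 to 129 in 4T1, 15.3 to 49.2 in 67NR and 12.6 to 88.1 in normal lungs. Of the same marker list, Mpo read 84.7 to 172 in 4T1, 50.6 to 105 in 67NR and 77.6 to 123 in normal lungs. Ngp read 772 to 2575 in 4T1 lungs and 134 to 335 in the other arrays. Camp, under the filter on level, read 38.7 to 572 in 4T1 lungs and 6.44 to 12.6 in the other arrays. The part of neutrophils in the Steap4 and Lrg1 results was not tested, nor in those of Il1b, Slpi, Lcn2, Fpr2 and Slc40a1 given below. In whole lung a change in the number of cells of a type and a change in RNA per cell cannot be told apart.

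Within the 4T1 group, the array with the lowest Steap4 and Lrg1, replicate 2, also had the lowest neutrophil score (0.57, against 0.83 to 1.23). The array with the highest Steap4 and Lrg1, replicate 3, had instead the highest adipocyte score, 0.71 against -0.15 to 0.13. Of 14 adipocyte markers, 11 had a value, 6 were tested and 0 were called in any comparison. Their summed intensity was 2761 to 6930 in 4T1, 2178 to 4044 in 67NR and 2254 to 4003 in normal lungs. Leptin read 8.96 to 12.3 over all arrays and Pparg 27.6 to 95.1, with Pparg at 28.1 in 4T1 replicate 3. That array had the highest Fabp4, 3996 against 607 to 1880 in the others, and the highest Adipoq, 784 against 123 to 448. Ucp1 read 245 there and 4.66 to 62.3 in the others. Without 4T1 replicate 3, Steap4 rose against normal lung by 1.03 (limma adjusted p = 5.14e-05) and Lrg1 by 0.69 (limma adjusted p = 0.0321). With the adipocyte score as a covariate the rises were 1.04 and 0.71, both called. The score averages 11 genes, 5 of them under the filter on level. These refits do not measure the part of adipocytes in the Steap4 and Lrg1 results, which was not tested. No fit took the neutrophil score as a covariate.

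**Figure D3:**
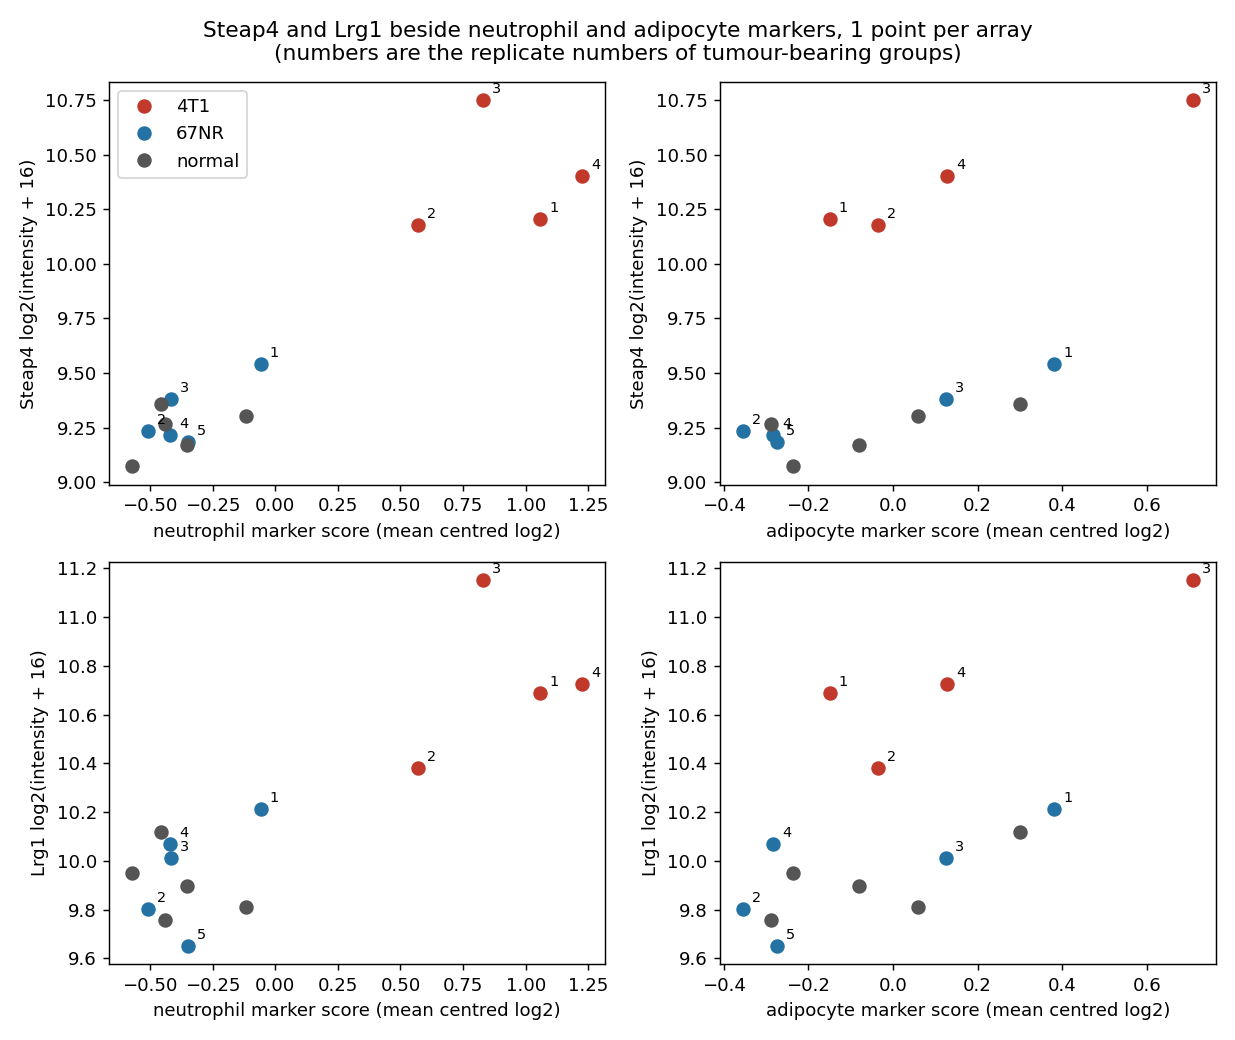
Steap4 and Lrg1 levels of each array plotted against its neutrophil marker score and its adipocyte marker score, on the log2 scale, with the 3 groups in separate colours. The 4T1 arrays have neutrophil scores of 0.57 to 1.23 and the others of -0.57 to -0.06, whereas the adipocyte scores of the groups overlap.

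Markers of liver, the main source of acute phase transcripts, were mostly dim. Of 14 hepatocyte markers 13 had a value and 1 was above the filter on level, and their summed intensity was 1272 to 2147 in 4T1, 1028 to 1427 in 67NR and 1083 to 1547 in normal lungs. The fetuin gene Ahsg read 5.15 to 6.66 and Ttr, transthyretin, 1.60 to 32.5 over the 14 arrays. Albumin read 80.3 to 124. Apoa1, apolipoprotein A1, was under the filter at 21.4 to 36.2 in 4T1, 6.37 to 16.1 in 67NR and 4.97 to 20.6 in normal lungs, so its 4T1 arrays lay above all others. The 1 tested marker, Cyp2e1, an ethanol-oxidising cytochrome, read 536 to 1504 in 4T1, 370 to 681 in 67NR and 481 to 823 in normal lungs, with 4T1 replicate 3 the highest. It differed by 0.43 between 4T1 and normal lungs and by 0.67 between 4T1 and 67NR lungs (limma unadjusted p = 0.0221, adjusted p = 0.305), and was not called. The part of liver genes in the Steap4 and Lrg1 results was not tested. Of the monocyte and macrophage list, 1 of 11 tested genes was called, the Fc receptor gene Fcgr4, higher in 4T1 than in normal lungs by 0.41 (limma adjusted p = 0.0475). The list median in that comparison was 0.00015. The Fcgr4 call lay close to the threshold and was not followed through the alternative settings. The part of neutrophils in the Fcgr4 result was not tested either.

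Upstream of the members, 1 cytokine gene was called. Il1b, which encodes interleukin 1 beta, read 2407, 1444, 3085 and 2170 in 4T1 lungs, 1063, 530, 787, 740 and 645 in 67NR lungs, and 768, 637, 474, 570 and 862 in normal lungs. The 4T1 arrays did not overlap with the others. Il1b was higher by 1.74 than in normal lung (limma adjusted p = 0.00117) and by 1.56 than in 67NR lung (limma adjusted p = 0.0037). It was 1 of 4 tested genes of 9 listed cytokines. Il6 was under the filter on level at 17.2 to 42.0, and Osm, which encodes the ligand of Osmr, differed from normal by 0.17 in 4T1 lungs and did not pass.

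No cytokine receptor or signalling gene was called by limma in any comparison, with 1 to 3 genes per list at an unadjusted p under 0.05. Of 10 cytokine receptor genes 6 were tested, with a median change of 0.08 in 4T1 against normal lung. Of 20 genes of the JAK-STAT, C/EBP and NF-kB pathways 17 were tested, with medians of 0.08 in 4T1 and -0.01 in 67NR lungs against normal. Il6st, which encodes gp130, differed from normal in 4T1 lungs by 0.04, Stat3 by 0.03, Cebpb by 0.14 and Cebpd by 0.32. Socs3, the feedback inhibitor that STAT3 induces, differed by 0.35 (limma adjusted p = 0.735), with 1 array, 4T1 replicate 3, at 1557 against 926 to 971 in the other 3. Transcript level does not report STAT3 activity.

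**Figure D4:**
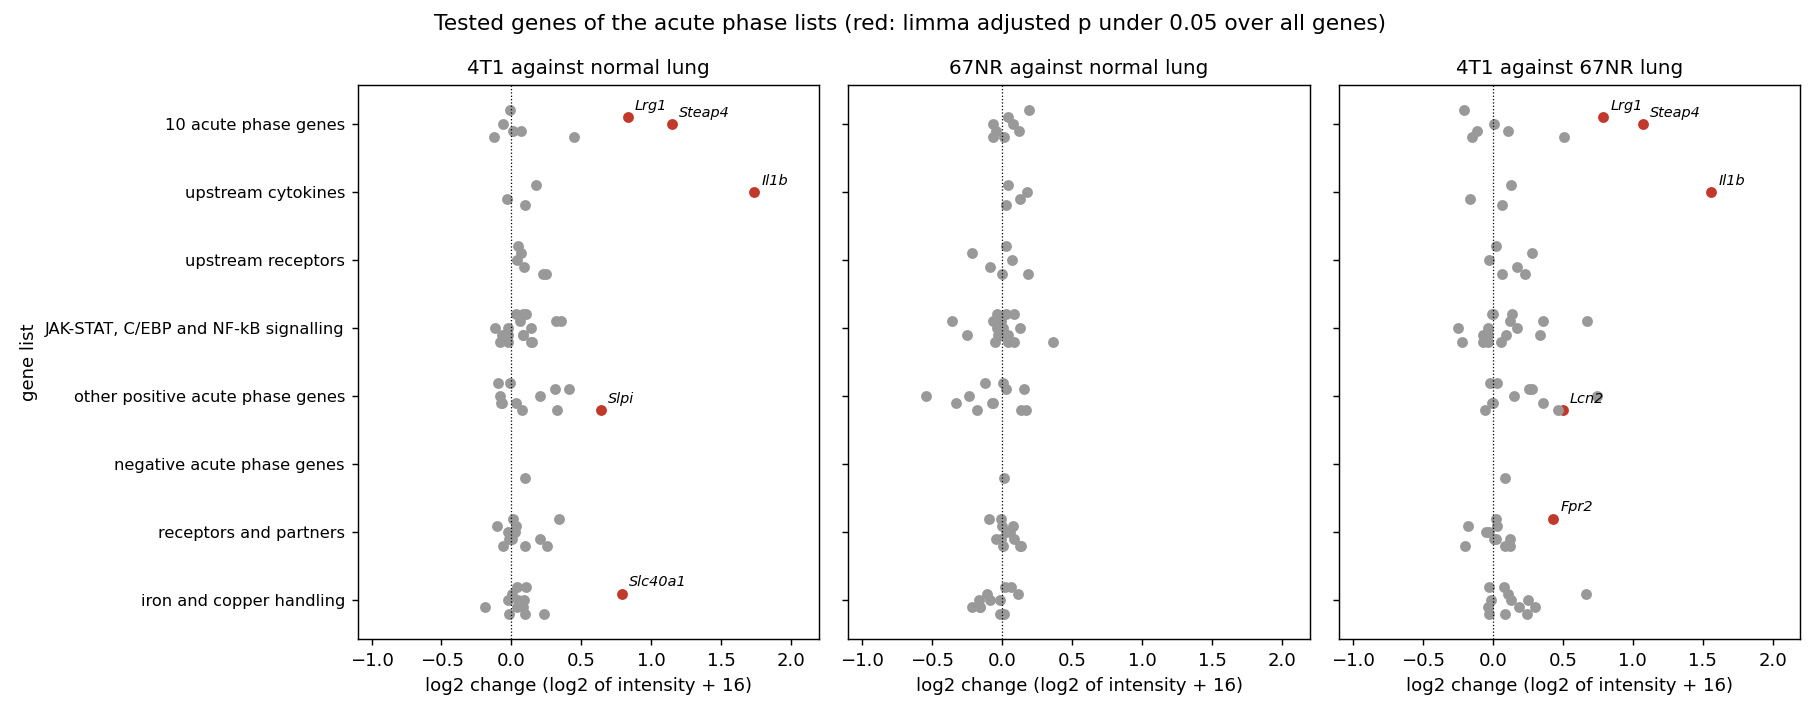
Log2 changes of the tested members and of the tested genes of each pathway list in the 3 comparisons; each point is 1 gene, red marks a limma adjusted p under 0.05 and the dotted line marks 0. Il1b at 1.74 and 1.56 is the gene farthest to the right, and no point is red in 67NR against normal lung.

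Among other acute phase genes, too, few were called. Of 35 further positive acute phase genes, 27 had a value, 12 were tested and 1 was higher in 4T1 than in normal lung, with a list median of 0.06. The called gene was Slpi, an inhibitor of neutrophil elastase, which read 1317, 931, 1183 and 1296 in 4T1 lungs and 631 to 865 in normal lungs, a rise of 0.64 (limma adjusted p = 0.0217). Against 67NR lung the called gene was Lcn2, lipocalin 2, which binds bacterial siderophores. It read 3198 to 4131 in 4T1, 2303 to 2848 in 67NR and 2583 to 3108 in normal lungs, with a difference of 0.50 from 67NR (limma adjusted p = 0.00902) and of 0.32 from normal (limma adjusted p = 0.178). Of 9 negative acute phase genes, which fall in the liver response, 1 was tested, Rbp4, and it did not pass.

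Among 14 genes for receptors and partners of the members' products, 12 were tested. Fpr2, a formyl peptide receptor that also binds serum amyloid A, was higher in 4T1 than in 67NR lung by 0.43 (limma adjusted p = 0.0336), and its difference of 0.34 from normal did not pass. It read 1126 to 1476 in 4T1, 836 to 1055 in 67NR and 934 to 1153 in normal lungs. Of 14 genes of iron and copper handling, 13 were tested and 1 was called, Slc40a1, the iron exporter ferroportin. It read 937, 644, 826 and 825 in 4T1 lungs, 627, 459, 469, 499 and 452 in 67NR lungs, and 541, 427, 324, 499 and 533 in normal lungs. It rose by 0.79 against normal (limma adjusted p = 0.0265) and differed by 0.67 from 67NR (limma adjusted p = 0.0531). In 67NR against normal lung 0 genes of any pathway list were called by limma, with 0 to 2 genes per list at an unadjusted p under 0.05.

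The Il1b calls held under all 30 alternative settings (adjusted p up to 0.00803 against normal and 0.0219 against 67NR), while the other pathway calls depended on the arrays included. Leaving out single arrays ended the Slpi call without 4T1 replicate 1, 3 or 4 and without normal replicate 2, 4 or 5, and the Slc40a1 call without 4T1 replicate 1, 3 or 4 or normal replicate 2. Over all 30 alternative settings, the adjusted p reached 0.109 for Slpi and 0.129 for Slc40a1 against normal, and 0.119 for Fpr2 against 67NR. The Fpr2 call was lost without 4T1 replicate 1, 3 or 4 and without 67NR replicate 2 or 3. Conversely, the Slc40a1 difference from 67NR passed in 12 of the 30 settings, among them without 4T1 replicate 2, without 67NR replicate 1 and without normal replicate 3. Without 4T1 replicate 2, Slpi passed against 67NR and Fpr2 against normal lung. The Lcn2 difference from 67NR lost its call without 67NR replicates 1 and 3, the arrays with low clock output genes (adjusted p = 0.0675), and with the clock output score as a covariate (adjusted p = 0.0792).

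The genes whose pattern was most like each changed member were chosen by Pearson's r over the 14 arrays, as a description across arrays of 3 groups. For Steap4 these were Cxcr2 (r = 0.98), Clec4d (r = 0.98), which encodes a C-type lectin receptor of myeloid cells, and Ifitm1 (r = 0.97). With group means removed, r was 0.72, 0.85 and 0.64. For Lrg1 they were Tlr13 (r = 0.96), a receptor for bacterial ribosomal RNA, Steap4 (r = 0.95) and Ifitm1 (r = 0.93), and with group means removed r was 0.82, 0.77 and 0.76. For Saa3 they were Ltf, Asprv1 and Cdan1 at r = 0.81, 0.80 and 0.77, and with group means removed r was 0.71, 0.71 and 0.60. Over the 14 arrays the r values of Saa3 were thus lower than those of Steap4 and Lrg1. With group means removed, the 0.71 of Saa3 lay near the 0.72 and 0.64 of Steap4 with Cxcr2 and Ifitm1.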

How the data were processed

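RNA of 14 BALB/c lung samples was measured on Affymetrix arrays, grouped by the injected cells named in the labels. The authors deposited linear probe set intensities; summarisation, background correction and normalisation are not given in the sources used here, nor is a genome build. Gene symbols came from the 2016 platform annotation: 34958 carried 1 symbol, 932 several and 9211 none, and those with 1 symbol were used. Values were taken as log2(intensity + 16) without further normalisation. Each gene was represented by its brightest probe set (mean over all arrays), and the upper 60% of genes (mean log2 above 7.35) were tested, 10916 in all. All 14 arrays entered 1 model with a mean for each group (limma 3.58.1, R 4.3.3, lmFit and eBayes, 11 residual degrees of freedom), with two-sided p-values adjusted by Benjamini-Hochberg over all genes tested; an adjusted p under 0.05 was called. The 34958 single-symbol probe sets were fitted likewise without the filter. No detection calls were used, so a dim probe set cannot be told from background, and the number of arrays limits the precision. The fits were tested on simulated data. Replicate numbers showed no pairing of the samples and were not used as a block in the main fits. The text names all 10 members, the called genes of each pathway list (up to 4 by smallest p) with Il6, Osm, Il1b, Il6st, Stat3, Socs3, Cebpb, Cebpd, Saa2 and Lcn2, and the 3 genes most like each changed member and Saa3. The members and lists were chosen with earlier results of these data known. Alternatives changed normalisation, offset, filter, probe set choice, variance model, arrays and covariates.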

Additional observations from a re-analysis of the deposited data

Results flagged for a closer look

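Within groups of 4 or 5 arrays, 99 tests for an array far from the rest found 6, a rule that chance meets in about 1 of 20 groups. Steap4 probe set 1425829_a_at had a low 4T1 replicate 2 at 251.6, the others at 343.7 to 361.1. The same Steap4 probe set had a low 67NR replicate 4 at 150.2, the others at 174.5 to 182.5. Saa1 probe set 1419075_s_at had a high 4T1 replicate 1 at 67.7, the others at 51.1 to 52.9. Cp probe set 1417496_at had a high normal replicate 5 at 652.5, the others at 457.9 to 498.7, and Cp probe set 1441326_at a low 67NR replicate 5 at 38.3, the others at 52.6 to 57.0. Socs3 had a high 4T1 replicate 3 at 1557, the others at 925.9 to 970.8.

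The change against normal lung differed between the 2 tumour lines, by the limma contrast of 4T1 with 67NR, for 5 named genes. The difference was 1.07 for Steap4 (adjusted p = 1.24e-04), 0.79 for Lrg1 (adjusted p = 0.0153), 1.56 for Il1b (adjusted p = 0.0037), 0.50 for Lcn2 (adjusted p = 0.00902) and 0.43 for Fpr2 (adjusted p = 0.0336).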

How the results depend on the processing

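Steap4 kept its call in both 4T1 comparisons under all 30 alternatives (log2 1.03 to 1.22 against normal, 0.94 to 1.26 against 67NR), and Lrg1 kept its call against normal (log2 0.69 to 0.95, adjusted p 0.00283 to 0.0459). Saa3 was called in none. The number of members called in 4T1 against 67NR fell from 2 to 1 with only the 2 groups compared, and was 1 to 2 with single arrays left out; fewer samples enter those fits, and the gene lost was Lrg1. Over all probe sets, Lrg1 against normal (adjusted p = 0.0452) lost its call in several settings, which left 2 of 3 probe sets called, the Steap4 pair: offset 1, only the 2 groups compared, the replicate block, and single arrays left out (without 4T1 replicates 1, 3 or 4, 67NR replicates 2, 3 or 4, or any 1 normal array). Against 67NR, 2 member probe sets became 3 with median centring, offset 64, a trended variance or without 4T1 replicate 2.

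The replicate numbers were checked as a possible pairing. The 13 same-numbered pairs had correlations of -0.34 to 0.22, with 3 over 0.1, and 1 of 14 arrays correlated best with its own number. These values showed no pairing by number, but so few pairs cannot exclude one. With the replicate block the calls over the gene fit were 2, 0 and 2 in the order 4T1 against normal, 67NR against normal and 4T1 against 67NR, and over the probe sets 2, 0 and 2.

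Signs turned for uncalled values near 0, and the cause was not tested. In 4T1 against normal, Hp was -0.0073 with quantile normalisation and -0.0064 with array weights. Serpina3n was -0.023 with the adipocyte covariate and -0.018 with the replicate block. Lbp was 0.21 and Il6st -0.025 with the mean of probe sets. Osmr was 0.00058 with median centring, 0.0015 with the mean of probe sets and 0.0196 with array weights. In 67NR against normal without replicates 1 and 3, Steap4 was -0.024, Lrg1 -0.066, Lbp 0.0061 and Il1b -0.033. With the clock output covariate Steap4 was -0.11, Lrg1 -0.18, Cp -0.045, Lbp 0.025, Il1b -0.23 and Slc40a1 -0.11. With the mean of probe sets Lbp was 0.26, Stat3 -0.00069, Socs3 0.00013 and Cebpb 0.00062. With array weights Serpina3n was 0.078, Osm -0.0203 and Cebpb 0.094, and with the adipocyte covariate Socs3 was 0.0053. In 4T1 against 67NR, Lbp was -0.049 with the mean of probe sets, -0.063 without 67NR replicates 1 and 3 and -0.084 with the clock covariate, Osm -0.072 and Il6st 0.0057 with the clock covariate. Stat3 was 0.0081 with median centring, 0.063 with the mean of probe sets, 0.00089 with array weights, 0.022 without 67NR replicates 1 and 3, 0.0087 with the adipocyte covariate and 0.021 with the clock covariate.

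With single arrays left out, signs turned within these ranges. In 4T1 against normal they were -0.017 to 0.044 for Hp, -0.064 to 0.15 for Serpina3n, -0.11 to 0.18 for Osmr and -0.028 to 0.082 for Stat3. In 67NR against normal they were -0.20 to 0.011 for Saa3, -0.023 to 0.12 for Lrg1, -0.17 to 0.12 for Serpina3n, -0.026 to 0.0501 for Cp, -0.081 to 0.13 for Osm, -0.00019 to 0.084 for Stat3, -0.086 to 0.069 for Socs3, -0.13 to 0.057 for Cebpb and -0.0020 to 0.18 for Slc40a1. In 4T1 against 67NR they were -0.058 to 0.23 for Serpina3n, -0.024 to 0.044 for Lbp, -0.057 to 0.0044 for Il6st and -0.059 to 0.039 for Stat3.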
